A study of Mus musculus with 49 samples.

Results

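Mediator is the large protein complex that carries signals from transcription factors to RNA polymerase II at promoters. Its head and middle modules contact the polymerase, its tail binds activators, Med14 holds the core together, and a separable kinase module with Cdk8 or its paralog Cdk19, cyclin C (Ccnc), Med12 and Med13 regulates the core. The embryo depends on transcripts stored in the oocyte until its own genome is switched on, which in the mouse happens mainly at the late 2-cell stage. The genes described here were the protein-coding genes whose symbol is Med followed by digits, with or without a final l, together with Cdk8, Cdk19 and Ccnc. This rule found 33 genes among the 54838 genes counted. By module, 10 belong to the head, 8 to the middle, 1 is the scaffold Med14, 7 belong to the tail and 7 to the kinase module. The rule used no measured value.

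The study asked what the TATA-binding protein TBP and the forkhead factor FOXJ3 do in early mouse embryos, and removed each by Trim-Away, in which the ubiquitin ligase Trim21 has the protein degraded that an injected antibody holds. Zygotes of the F1(C57BL/6JxCBA/H) genotype received an antibody to TBP (TBP LOF, 9 embryos) or mouse IgG (its CONTROL, 10 embryos), or an antibody to FOXJ3 (FOXJ3 LOF, 17 embryos) or rabbit IgG (its CONTROL, 13 embryos). All 4 groups, the CONTROL embryos included, received Trim21 mRNA 4 h later and were collected singly at 48 h post-hCG. Each embryo was sequenced with Smart-seq+5′ and reads of transcript 5′ ends were counted per gene. The antibodies act on protein, so the transcript level of the target checks neither depletion. The FOXJ3 embryos were processed in 2 batches. The labels say that TBP embryos were collected in several biological replicates, but not which embryo came from which, so that p-values measure the spread between embryos. Per the Methods, FOXJ3 embryos too came from several independent experiments. Their batches are those of library preparation, so that collection could not be modelled in either experiment.

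Of 49 embryos, 47 passed quality control (1 TBP CONTROL and 1 FOXJ3 LOF embryo did not), with 1103569 to 5434808 counted reads each. All 33 Mediator genes had reads in most embryos, and 31 to 33 of them were detected in each TBP LOF embryo. The 8 markers of the 2-cell stage were read in most embryos. Of the 8 cumulus cell markers 2 had no read in any embryo, and 2 were read in most. Tbp transcripts were themselves lower in TBP LOF, with a log2 fold change of -2.14, an SE of 0.37 and a Benjamini-Hochberg adjusted p of 5.28e-06 in edgeR's quasi-likelihood test. The mCherry-Trim21 construct was read in all 49 embryos. Among FOXJ3 CONTROL embryos, embryos 2 and 3 of batch 1 stood apart from the rest of their group. Their median Spearman correlations with the other CONTROL embryos, across genes, were 0.808 and 0.776, against 0.852 to 0.876 for the other 11. Further values of the pair are given with the FOXJ3 groups. Whether their label holds was not tested, and values over all 13 CONTROL embryos take it as it stands. The levels at both ends of the order in FOXJ3 CONTROL, the FOXJ3 effects described for single genes and the counts of the comparison of both experiments are given with and without them.

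In CONTROL embryos the tail subunit gene Med29 and the middle subunit gene Med31 were read most per kb of exon, and Cdk19, Med12 and Med12l of the kinase module least. In CPM (reads of the gene scaled to a common library total) per kb, Med29 stood at 323 ± 99.99 (SD, n = 9) in TBP CONTROL and 359 ± 129 (n = 13) in FOXJ3 CONTROL. Med31 followed at 143 ± 33.2 and 158 ± 68.3, and Med6 at 70.2 ± 16.4 and 88.4 ± 45.9. The median over the 33 genes was 6.55 in TBP CONTROL and 8.37 in FOXJ3 CONTROL. At the other end of the order stood Cdk19 at 0.521 ± 0.383 and 0.605 ± 0.302, Med12 at 0.506 ± 0.385 and 0.648 ± 0.550, and Med12l at 0.238 ± 0.169 and 0.254 ± 0.120. Without the 2 FOXJ3 CONTROL embryos that stood apart (n = 11), the levels in that group were 401 ± 80.1 for Med29, 180 ± 46.2 for Med31, 101 ± 36.7 for Med6, 0.594 ± 0.305 for Cdk19, 0.723 ± 0.566 for Med12 and 0.229 ± 0.112 for Med12l, and the median over the 33 genes was 8.55. In FOXJ3 CONTROL with all 13 embryos the genes from Med6 down the order to Med11 each differed from the next by less than the larger of their SDs, as did Cdk19 and Med12 in both groups. Without the pair this held from Med6 over Med27 and Med11 to Med28, and again for Cdk19 and Med12, and Med30 stood at 38.6 ± 14.02 rather than 53.5 ± 45.7. Only 5′ ends were counted, so a level per length understates long transcripts. In CPM, without division by length, Med29 was still first in both groups and Med12l last, and Med28, a head subunit gene, ranked 3 in TBP CONTROL and 2 in FOXJ3 CONTROL.

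The 33 genes together took up a small part of the gene reads. In TBP LOF they made up 0.133% at the lowest, 0.231% at the median and 0.271% at the highest, and in TBP CONTROL 0.232%, 0.280% and 0.337%. The groups overlapped, although the median of TBP LOF lay below the lowest TBP CONTROL embryo. In FOXJ3 LOF the shares were 0.241%, 0.302% and 0.449%, and in FOXJ3 CONTROL 0.260%, 0.341% and 0.459%, so that these groups overlapped over nearly their whole range. Without the pair that stood apart the CONTROL median was 0.388%, with the same lowest and highest embryo.

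**Figure D1:**
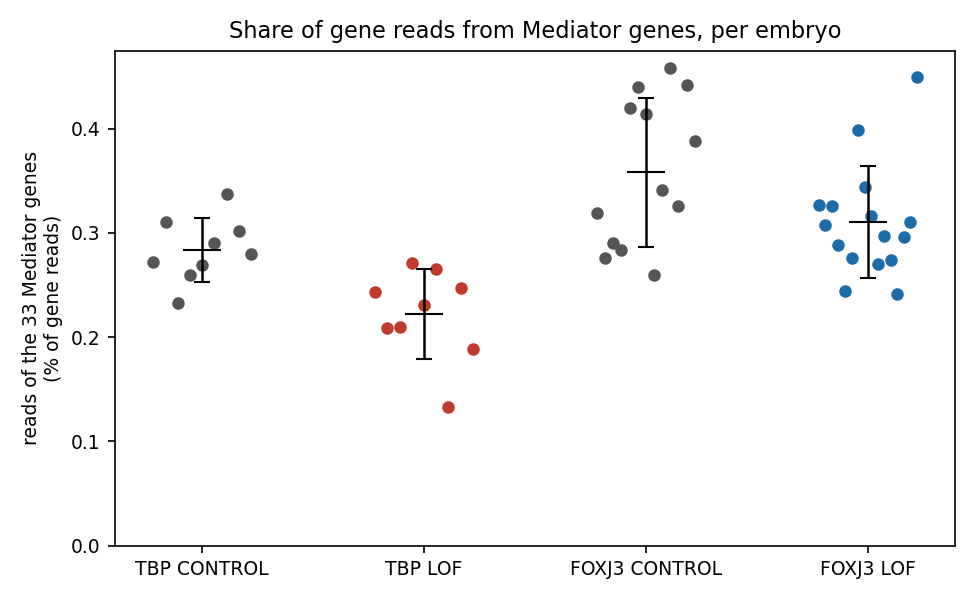
Share of gene reads that came from the 33 Mediator genes in each embryo that passed quality control (vertical axis, percent), by group. Points are embryos and the bars give the mean and SD. The TBP LOF embryos lie between 0.133% and 0.271%, below the TBP CONTROL median of 0.280%, while the FOXJ3 groups overlap.

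After Trim-Away of TBP, the estimates varied between Mediator genes, and differences between genes were not tested. With embryos scaled to the spike-in RNA, 17 of the 33 genes fell, none rose, and 16 did not pass the test. The strongest falls were in 3 head subunit genes, Med8, Med6 and Med11, in cyclin C and in the middle subunit gene Med31, each by over 2 on the log2 scale. Med21, Med15, Med28, Med13l and Med12l had estimates slightly above 0. The 17 genes are 51.5% of the members. Among all 18447 genes tested, 29.8% fell and 1.4% rose by the same rule, and among the 13928 protein-coding genes 33.2% fell. The median log2 fold change was -1.01 over the Mediator genes and -0.70 over all genes. Where only the better expressed genes were tested (edgeR's filterByExpr, 7699 genes), 15 of 28 Mediator genes fell, or 53.6%, and none rose, beside 52.7% lower and 1.6% higher of all genes, so that their share was near that of genes read at like depth. The spike-in scale refers to RNA per embryo. The embryos in both groups were single late 2-cell embryos, and RNA per cell was not tested.

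The direction for the less affected genes depended on the scale. Scaling by TMM, which sets the bulk of genes equal between embryos, moved the median of all genes by 0.83 on the log2 scale, from -0.70 to 0.13. On that scale 7 Mediator genes were lower and 7 were higher, beside 12.9% and 13.2% of all genes, and their median was -0.10. Relative to the median of all genes, the Mediator median was -0.30 with spike-in scaling and -0.23 with TMM. The 7 genes lower under both scalings were Med6, Med8, Med11, Med31, Med4, Med24 and Ccnc. The 7 higher under TMM were Med12l, Med13l, Med15, Med21, Med25, Med28 and Med30, and with spike-in scaling none of them passed the test.

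In the GRCm38 annotation Med8 (ENSMUSG00000006392.16) lies on chromosome 4 from 118409337 to 118415782, Med11 (ENSMUSG00000018923.13) on chromosome 11 from 70451919 to 70453727, Med31 (ENSMUSG00000020801.8) on chromosome 11 from 72211724 to 72215592 and Med6 (ENSMUSG00000002679.14) on chromosome 12 from 81573557 to 81595008. Med8, a head subunit gene, gave 0 normalised reads in the lowest TBP LOF embryo, 6.76 at the median and 19.3 in the highest, against 30.7, 65.6 and 102 in TBP CONTROL (n = 9 each). Every TBP LOF embryo lay below every TBP CONTROL embryo. The log2 fold change was -3.01 (SE 0.41), with an adjusted p of 8.33e-08 (edgeR's quasi-likelihood test, Benjamini-Hochberg). Med11, another head subunit gene, had 1.15, 14.1 and 31.4 normalised reads in TBP LOF against 67.1, 79.2 and 177 in CONTROL. These groups did not overlap either. Its log2 fold change was -2.66 (SE 0.37, edgeR adjusted p = 1.37e-07). Med31, whose protein lies in the middle module, ranged from 19 over a median of 97.5 to 268 in TBP LOF and from 368 over 526 to 972 in CONTROL, again without overlap. Its log2 fold change was -2.33 with an SE of 0.35 (edgeR adjusted p = 4.27e-07). Med8, Med11 and Med31 were the only 3 of the 33 Mediator genes whose groups did not overlap. Of all genes tested 6.96% had TBP LOF wholly below CONTROL and 0.0108% wholly above, so that the share of Mediator genes was near the background.

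Med6, a head subunit gene, had 11.6, 26.4 and 107 normalised reads in the lowest, median and highest TBP LOF embryo, against 102, 214 and 335 in CONTROL. Only TBP LOF embryo 6, the highest, reached into the CONTROL range. The log2 fold change was -2.69 (SE 0.35), with the smallest adjusted p of the Mediator genes, 2.23e-08 in edgeR. Med4, a middle subunit gene, had 19, 53.7 and 123 in TBP LOF and 121, 216 and 375 in CONTROL. Here too the same embryo alone overlapped CONTROL, and the log2 fold change was -1.91 (SE 0.33, edgeR adjusted p = 5.41e-06). TBP LOF embryo 6 thus held the highest value of the group in Med6, Med8, Med11, Med31, Med4 and Ccnc alike. Embryo 9 held the lowest in Med8, Med31 and Med4. Without embryos 9 and 11, which held 12 and 11 of the 33 lowest values, 16 genes still fell and none rose. Of all genes 24.6% were then lower and 1.69% higher.

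**Figure D2:**
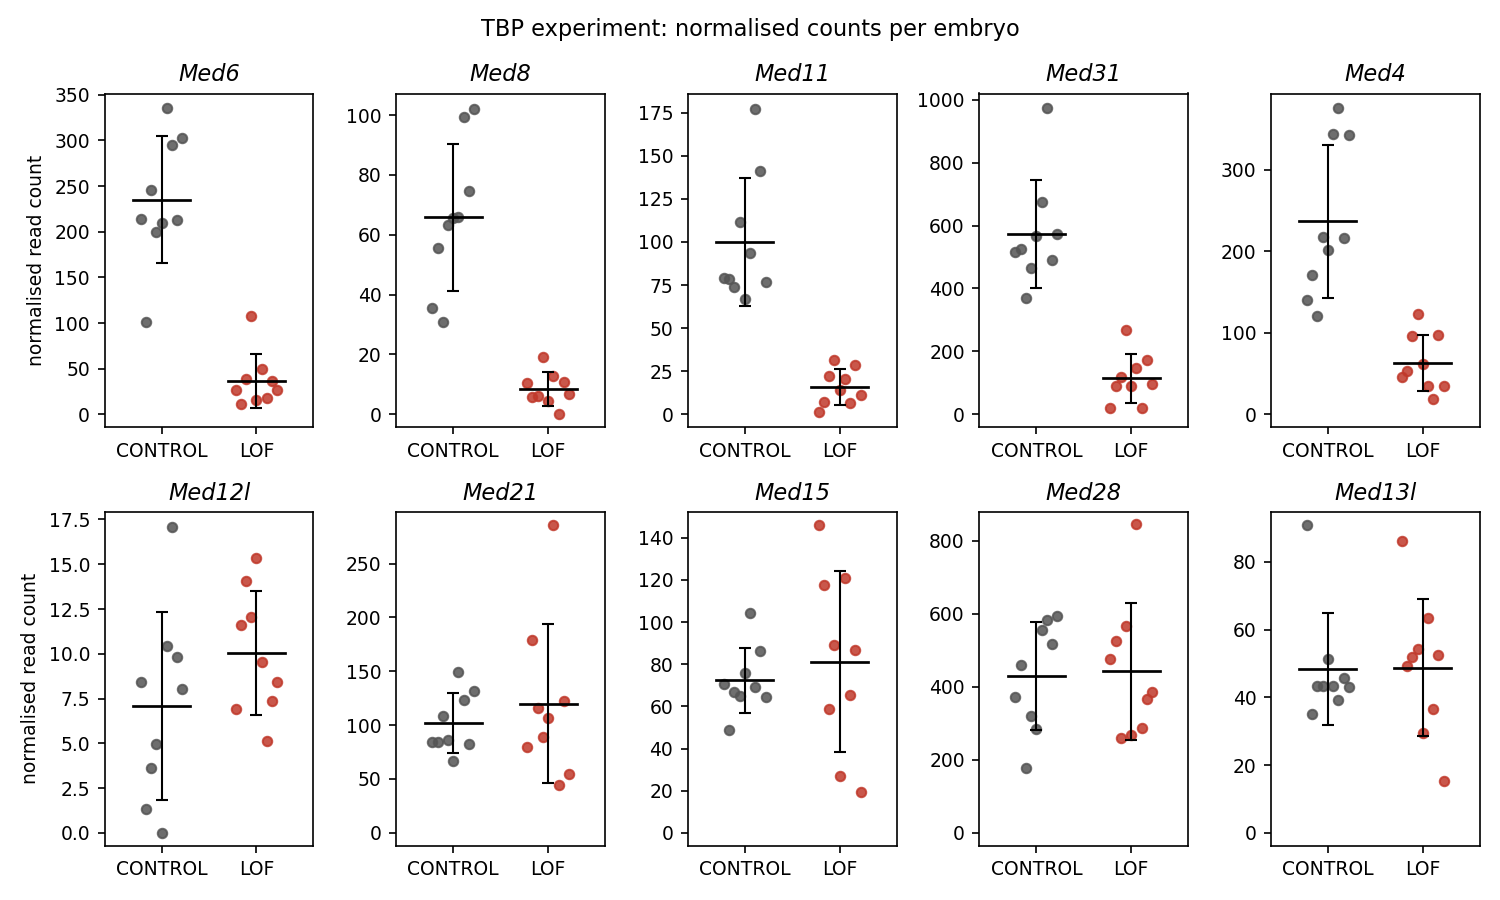
Normalised read counts (vertical axes, counts divided by the spike-in size factor) of 10 Mediator genes in each TBP CONTROL and TBP LOF embryo, with mean and SD. In the upper row, the 5 genes with the smallest adjusted p, TBP LOF embryos lie below CONTROL with at most 1 overlapping embryo, and in the lower row, the 5 genes with estimates above 0, the groups overlap.

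In the genes with estimates above 0 the groups overlapped in part or wholly. Med28, a head subunit gene, had 260, 385 and 845 normalised reads in TBP LOF and 179, 461 and 594 in CONTROL, and a log2 fold change of 0.04 (95% interval -0.55 to 0.62). Med21, a middle subunit gene, had 44.7, 107 and 286 against 67.1, 86.5 and 149, with 0.23 (-0.40 to 0.85). Med15, a tail subunit gene through which several activators act, had 19.3, 86.9 and 146 against 48.8, 69.0 and 104, with 0.15 (-0.50 to 0.80). In Med15, 2 of 9 TBP LOF embryos lay below the lowest CONTROL embryo and 3 above the highest, and in Med21 2 lay below and 2 above. On the spike-in scale the TBP LOF embryos spread more widely than the CONTROL embryos in Med28, Med21 and Med15. In CPM (mean ± SD) Med28 stood at 284 ± 69.2 in TBP LOF and 186 ± 59.8 in CONTROL. Med21 stood at 74.5 ± 28.4 and 43.8 ± 7.32, and Med15 at 50.3 ± 21.7 and 31.9 ± 8.05. Under TMM all of them were called higher, Med28 with a log2 fold change of 0.91 (edgeR adjusted p = 0.0032), Med21 with 1.03 (0.000982) and Med15 with 0.89 (0.006). With spike-in scaling their 95% intervals lay above those of Med8, Med6 and Med11.

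The estimates can also be read against the median of all genes rather than against 0. With spike-in scaling the 95% intervals of 12 genes (36.4% of members) lay wholly below the median of all genes, -0.70, beside 19% of all genes tested. Those of 5 genes (15.2%), Med28, Med12l, Med13l, Med21 and Med15, lay wholly above it, beside 13.8% of all genes, a share near the background. The 12 included Med8, Med6, Med11 and Med18 of the head, Med31, Med4 and Med9 of the middle, Med16, Med24 and Med29 of the tail, and Ccnc and Med12 of the kinase module. All genes tested include genes read at lower depth. Among the better expressed genes (filterByExpr) the median was -0.90 over all genes and -1.07 over the Mediator genes. Intervals were not compared with a median there.

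**Figure D3:**
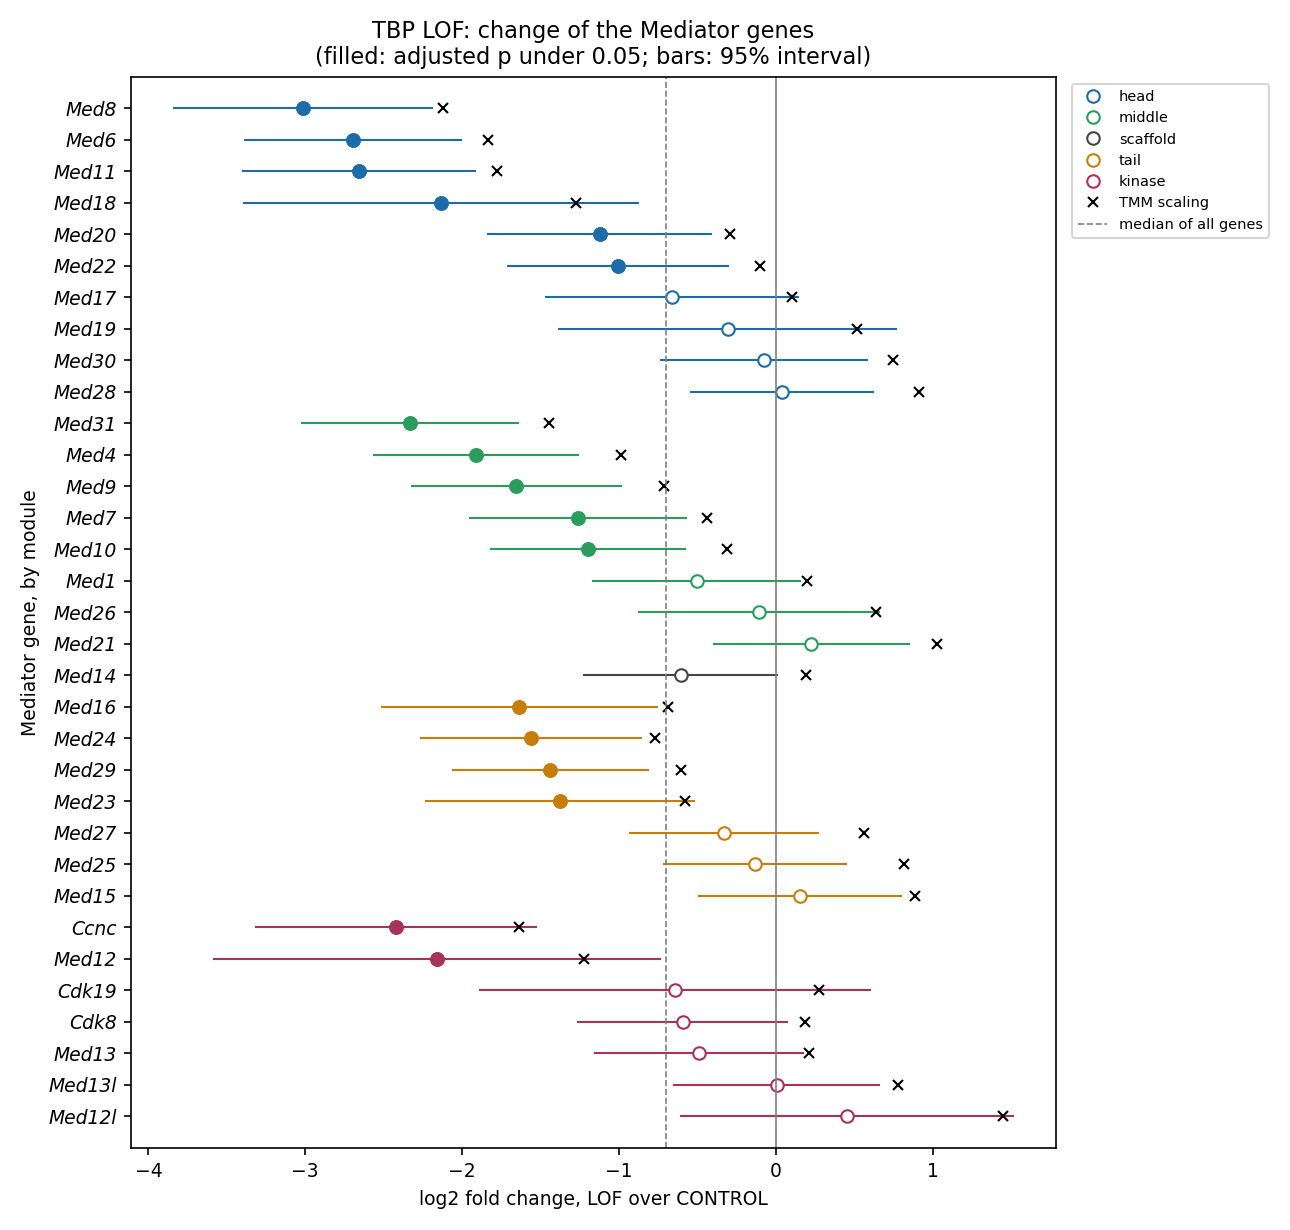
Log2 fold change of TBP LOF over CONTROL for the 33 Mediator genes, ordered by module and size, with spike-in scaling (circles, filled where the adjusted p was under 0.05, bars 95% intervals) and with TMM (crosses). The spike-in estimates run from -3.01 (Med8) to 0.45 (Med12l), and each cross lies to the right of its circle.

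Every module but the single scaffold gene held genes that fell and genes that did not pass the test, and differences between modules were not tested. In the head 6 of 10 fell, with a median log2 fold change of -1.07. Beside Med8, Med6 and Med11 these were Med18 at -2.13, Med20 at -1.12 and Med22 at -1.01. Without TBP CONTROL embryo 8, Med22 stood at -0.76 and did not pass the test (edgeR adjusted p = 0.108). Med17, which lies at the centre of the head, stood at -0.66 (edgeR adjusted p = 0.23). In the middle 5 of 8 fell, with a median of -1.23, and Med9, Med7 and Med10 at -1.65, -1.26 and -1.20 joined Med31 and Med4. Med1, the main contact of nuclear receptors, and Med26, which helps to bring elongation factors to the polymerase, had estimates of -0.51 and -0.11 and did not pass the test. Med14, the scaffold, stood at -0.61 (95% interval -1.23 to 0.01).

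In the tail 4 of 7 genes fell, with a median of -1.38. Med16 stood at -1.63 (edgeR adjusted p = 0.00274), Med24 at -1.56 (0.000367), Med29 at -1.44 (0.000239) and Med23, which binds activators downstream of growth signals, at -1.38 (0.00985). The abundant Med29 had 95.2, 337 and 670 normalised reads in TBP LOF against 629, 921 and 1561 in CONTROL, and 8 of 9 TBP LOF embryos lay below the lowest CONTROL embryo. Med27 at -0.33 and Med25 at -0.13 did not pass the test with spike-in scaling, and under TMM they stood at 0.56 (adjusted p = 0.0727) and 0.82 (0.00917).

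In the kinase module 2 of 7 genes fell, with a median of -0.59. Ccnc, the cyclin partner that both kinases need, had 0, 14.1 and 56.7 normalised reads in TBP LOF against 34.3, 89.4 and 191 in CONTROL, and 8 of 9 TBP LOF embryos lay below the lowest CONTROL embryo. Its log2 fold change was -2.42, the SE 0.45 and the adjusted p in edgeR 2.05e-05. The kinases themselves did not pass the test. Cdk8 had 16.4, 49.0 and 123 against 48.7, 88.1 and 160, and its log2 fold change was -0.59 (95% interval -1.27 to 0.08). Its paralog Cdk19 had 0.612, 4.35 and 10.3 against 0, 5.05 and 18.8, with -0.64 (-1.89 to 0.61). Reads of Cdk19 were few, and its interval spans both a fall and a rise.

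The other paralog pairs of the kinase module are Med12 with Med12l and Med13 with Med13l. Med12, which activates the kinase, had 0, 1.21 and 8.71 normalised reads in TBP LOF and 0, 9.48 and 20.2 in CONTROL, and fell by 2.16 (SE 0.71, edgeR adjusted p = 0.0154). Its reads were few, 92 over the TBP embryos, and under TMM it was not called (-1.22, edgeR adjusted p = 0.195). All 9 TBP LOF embryos lay below the CONTROL median, although the groups overlapped. Med12l had 5.13, 9.53 and 15.4 against 0, 8.06 and 17.1, with a log2 fold change of 0.45 (95% interval -0.61 to 1.51), and all its TBP LOF embryos lay within the CONTROL range. Med13, which tethers the kinase module to the core, had 9.90, 58.8 and 79.2 against 48.4, 74.0 and 103, with -0.49 (-1.16 to 0.18). Med13l had 15.5, 52.0 and 86.1 against 35.2, 43.3 and 91.0, with 0.00 (-0.65 to 0.66), and its sign changed when single embryos were left out. The difference between paralogs was not tested, since each gene was compared between groups only.

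Some Mediator genes share their start region or their span with other genes, and the sources used here do not say if reads were counted by strand. For 11 of the 33 a gene on the other strand starts within 1000 bases, in 13 pairs. The abundant neighbours had estimates on the same side of 0 as the Mediator gene. The median of all genes was itself -0.70, so that a shared side below 0 says nothing of shared starts. Bysl, which starts beside Med20, had a log2 fold change of -2.09, Rpl7a beside Med22 had -1.76 and Paf1 beside Med29 had -1.42, each with an edgeR adjusted p under the threshold, while Tm7sf3 beside Med21 stood at 0.31 and Med21 itself at 0.23. The neighbour of Med31, 4930563E22Rik, was rare, with 159 reads in all against 23362 for Med31. Med12l spans several small genes, so its few reads may be shared.

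The genes that fell had fewer exon bases at the median. The median exon length was 3350 bases in the 17 genes that fell (1046 to 7704) and 6738 in the 16 others (1185 to 15427), and the median span in the genome was 12837 against 62678 bases. Their median levels in CONTROL were 96.5 and 83.1 normalised reads. Length was not tested as a cause of the difference.

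Promoter sequences are shown because TBP is the protein that recognises the TATA box. The genes were picked from those that fell in TBP LOF and those with estimates above 0. Med8, with the strongest fall, had no RefSeq promoter among those used. Each stretch covers the bases from -100 to -1 before the RefSeq start of the gene (GRCm38.p6), written 5′ to 3′ on the strand of the gene. Capitals mark matches, on either strand, to the TATA box letters TATAAA, to the related TATATA, to CCGGAAG as bound by ETS factors, to ATGGCGG as bound by YY1, to CCAAT as bound by NF-Y or to GGGCGG as bound by SP factors, and matches may overlap.
Med6, chr12:81595009-81595108, minus strand: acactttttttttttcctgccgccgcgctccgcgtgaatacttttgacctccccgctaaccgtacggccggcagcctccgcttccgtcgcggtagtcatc
Med11, chr11:70451818-70451917, plus strand: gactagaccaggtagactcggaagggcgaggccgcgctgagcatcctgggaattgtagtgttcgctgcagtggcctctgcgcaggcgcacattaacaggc
Med31, chr11:72215593-72215692, minus strand: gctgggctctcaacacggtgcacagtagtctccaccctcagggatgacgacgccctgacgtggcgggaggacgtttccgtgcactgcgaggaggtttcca
Ccnc, chr4:21727601-21727700, plus strand: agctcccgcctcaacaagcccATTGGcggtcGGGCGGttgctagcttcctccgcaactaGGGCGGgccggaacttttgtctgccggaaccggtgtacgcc
Med28, chr5:45520129-45520228, plus strand: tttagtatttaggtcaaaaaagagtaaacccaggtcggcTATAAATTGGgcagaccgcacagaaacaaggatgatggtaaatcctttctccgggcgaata
Med21, chr6:146642479-146642578, plus strand: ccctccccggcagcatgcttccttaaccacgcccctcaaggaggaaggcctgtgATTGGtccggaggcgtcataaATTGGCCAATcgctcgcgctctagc

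The first 4 genes fell and the last 2 did not pass the test with spike-in scaling. In these stretches, the only TATAAA was that of Med28, which starts 61 bases before the RefSeq start, farther out than a TATA box usually lies. Over the window from 250 bases before to 50 bases after the start, TATAAA was found in 3 of the 28 Mediator genes with a RefSeq promoter (10.7%) and in 15.7% of 27025 genes. Within 40 to 15 bases before the start, on the strand of the gene, none of the 28 had TATAAA or TATATA, beside 2.41% and 1.15% of all genes. TATATA was not found in the wider window of any of the 28, beside 6.66% of all genes. GGGCGG was found in 19 of 28 (67.9%, all genes 38.2%), CCGGAAG in 8 (28.6%, all genes 9.93%), ATGGCGG in 5 (17.9%, all genes 4.69%) and CCAAT in 11 (39.3%, all genes 41.1%). Of the 14 matched genes that fell, 11 had GGGCGG and 4 had CCGGAAG, and of the 14 that did not, 8 and 4. TATAAA in the wider window was found in 2 of the 14 that fell, Med7 and Med16, and in 1 of the others, Med28. A match is a description of letters and says nothing of binding.

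The other genes of the same machinery gave these counts in TBP LOF, with spike-in scaling and beside 29.8% lower and 1.4% higher among all genes. Among the better expressed genes (filterByExpr) 52.7% were lower and 1.6% higher. Of the 12 subunit genes of RNA polymerase II 9 fell and none rose, with a median of -1.26, led by Polr2h at -2.87 and Polr2k at -2.10, while Polr2a, the gene of the catalytic subunit, stood at -0.62 (edgeR adjusted p = 0.157). Of the 13 TAF genes, whose proteins join TBP in TFIID, 4 fell and 1, Taf12 at 0.88, rose, with a median of -0.53. Of 16 genes for cohesin, elongation and coactivator proteins that work with Mediator 6 fell and none rose, with a median of -0.54. The shares of TAFs and cofactors that fell were near that of all genes. Under TMM the lower and higher calls were 5 and 1 for the polymerase, 2 and 6 for the TAFs and 1 and 3 for the cofactors, beside 12.9% lower and 13.2% higher among all genes, so that the calls for the cofactors and the lower calls for the TAFs were near or below the background.

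Marker genes also differed between the groups in their share of reads, which rises where other RNA falls. The 8 oocyte markers summed to 1747 to 3200 CPM in TBP LOF and 748 to 2278 CPM in TBP CONTROL, and the 8 markers of the 2-cell stage to 419 to 1146 and 145 to 592 CPM. Of the oocyte markers Oosp1 was read most, with 132267 reads over the embryos that passed, and Bmp15 followed with 32843. With spike-in scaling 1 oocyte marker, Zp3, fell and none rose, with a median log2 fold change of 0.08. Among the markers of the 2-cell stage none fell and 2, Tcstv3 and Usp17lc, rose, with a median of 0.38. Under TMM 5 of the 8 rose in either list, beside 13.2% of all genes, and 1 oocyte marker, Zp3, was lower, beside 12.9%. The 8 cumulus markers summed to 11.3 to 36.3 CPM in TBP LOF and 17.0 to 69.8 CPM in CONTROL. Of the 4 that could be tested 2, Tnfaip6 and Amhr2, fell with spike-in scaling and none rose, with a median of -1.82, and under TMM none was called. The part of these differences in the Mediator result was not tested.

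After Trim-Away of FOXJ3, none of the 33 Mediator genes passed the test, and 3 (9.09%) had an unadjusted p under 0.05, beside 5.68% of all genes. Over all 18626 genes tested with TMM, 0.0107% fell and 0% rose in edgeR. The Mediator median was -0.03, as was that of all genes. For 29 of the 33 the 95% interval lay within 1 of 0 on the log2 scale, and those of Med12, Med16, Med19 and Cdk19 reached farther. None was called in any alternative, DESeq2 included.

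**Figure D4:**
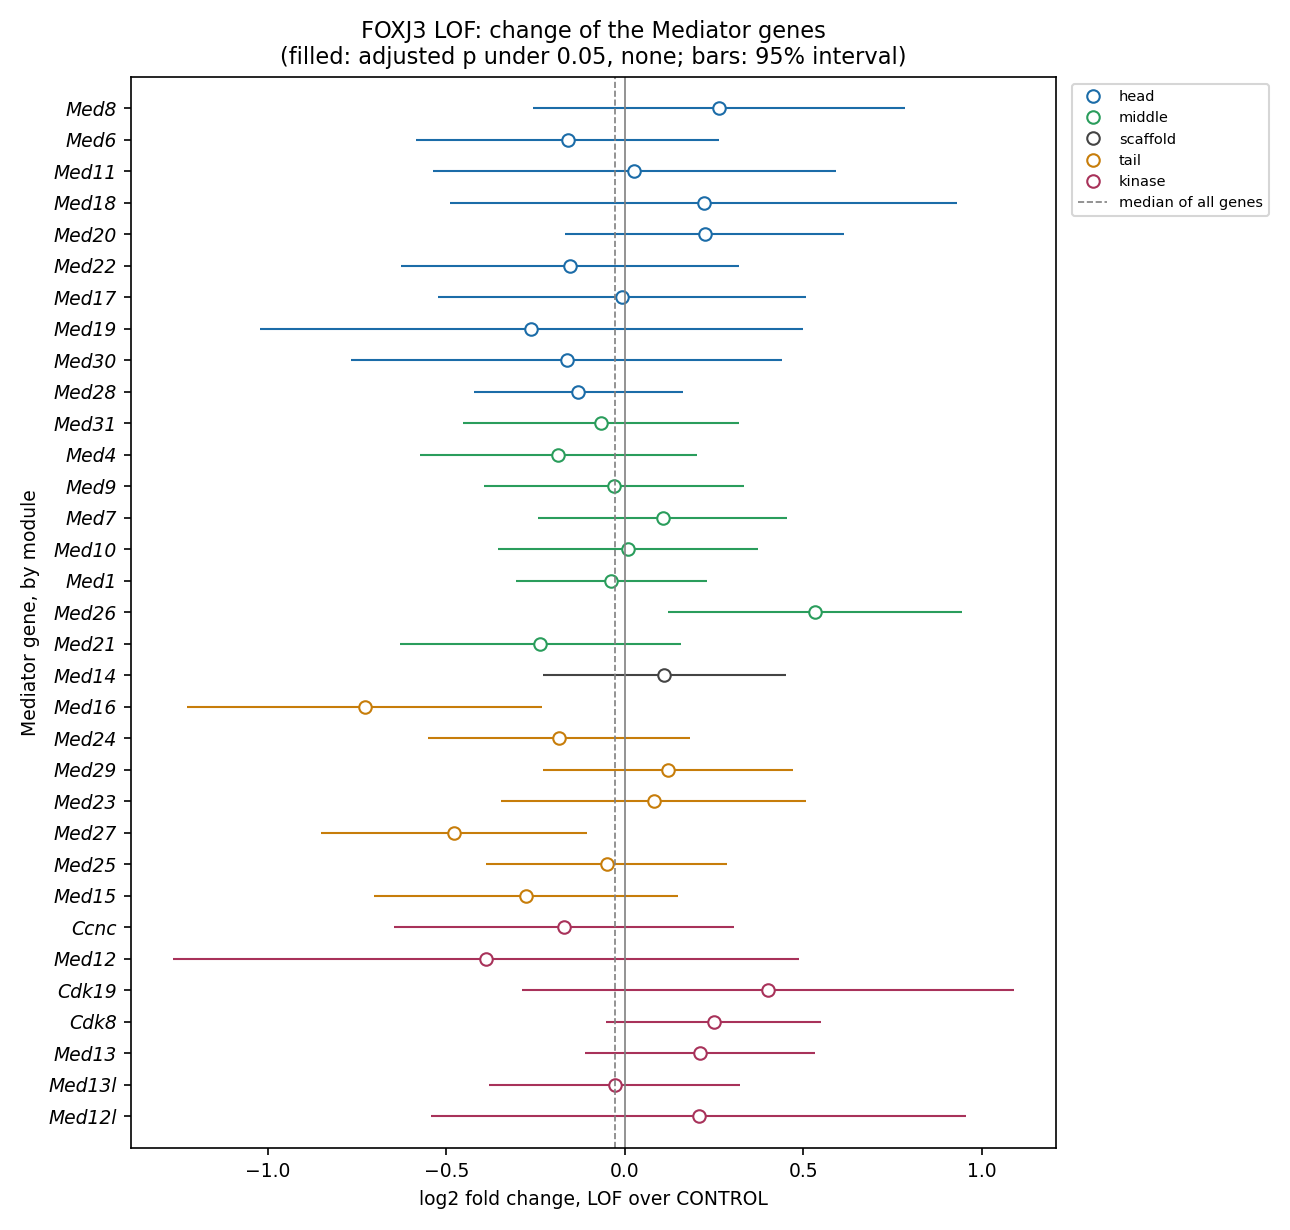
Log2 fold change of FOXJ3 LOF over CONTROL for the 33 Mediator genes, ordered as in the plot of the TBP effects (circles, bars 95% intervals, TMM with batch as a term). The estimates run from -0.73 (Med16) to 0.53 (Med26), and no circle is filled.

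The 3 genes with the smallest p were Med16 and Med27 of the tail and Med26 of the middle. Med16 had 12.2, 20.4 and 42.9 normalised reads in the lowest, median and highest FOXJ3 LOF embryo (n = 16) and 14.2, 40.6 and 69.2 in CONTROL (n = 13). The groups overlapped, and the log2 fold change was -0.73 (SE 0.25, p = 0.00521, adjusted p = 0.678, edgeR), with -0.47 in batch 1 and -1.08 in batch 2. Without CONTROL embryos 2 and 3 of batch 1, with 14.9 and 14.2 reads, it was -0.92 (SE 0.22, p = 0.000191, adjusted p = 0.167, edgeR) and -0.77 in batch 1. Med26 had 16.4, 42.5 and 86.9 against 18.5, 28.6 and 50.9, with 0.53 (SE 0.20, p = 0.0126, adjusted p = 0.783, edgeR), 0.63 in batch 1 and 0.39 in batch 2, and without the pair 0.50 and 0.62 in batch 1. Med27 had 269, 369 and 644 against 295, 434 and 1246, with -0.48 (SE 0.18, p = 0.0133, adjusted p = 0.783, edgeR), -0.77 in batch 1 and -0.15 in batch 2. The highest CONTROL value of Med27 was that of embryo 3 of batch 1, and embryo 2 had 825, against a median of 412 in the other 11. Without this pair the log2 fold change of Med27 was -0.17 (SE 0.14, p = 0.239, adjusted p = 0.934, edgeR) and -0.18 in batch 1, so that its estimate rested on the pair. The groups overlapped in each of the 3 genes. In the test of the FOXJ3 effect in batch 2 against batch 1 no Mediator gene was called, 1 had an unadjusted p under 0.05 (8.02% of all genes), and 0% of all genes were called. Without the pair again none was called.

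The 2 FOXJ3 CONTROL embryos that stood apart differed from the rest of their group in many of the Mediator genes that fell in TBP LOF. These embryos were singled out after their values were seen, so that the following is a description. In Med11, the remaining 11 CONTROL embryos had 75.9 to 214 normalised reads, and embryos 2 and 3 of batch 1 had 21.9 and 1.09. In Med8 the 11 had 30.8 to 130.3 and the pair 14.9 and 4.38, in Med6 216 to 516 against 46.8 and 73.3, and in Ccnc 88.4 to 229 against 6.97 and 45.9. Both embryos thus lay below the other 11, and below all 16 FOXJ3 LOF embryos, in each of these genes.

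Over the list, both embryos lay below the other 11 in 13 of the 33 genes (39.4%), beside 10.4% of all genes tested. These were all 7 genes that were lower in TBP LOF under both scalings, beside 47.1% of the 2353 genes so called, 4 more of the 17 that fell with spike-in scaling (11 of 17 or 64.7%, beside 32.2% of 5437 genes), and 2 of the 16 that did not pass the test, Cdk8 and Med13. Both lay above the other 11 in 3 genes (9.09%), Med30, Med21 and Med25, beside 10.3% of all genes, a share near the background. These were 3 of the 7 higher in TBP LOF under TMM, beside 35.2% of the 2348 genes so called. All genes tested include genes read at lower depth. A gene that lacks reads in any of the other 11 embryos cannot have the pair below them. The shares were not compared with those of the better expressed genes alone. In Med30 the pair had 190.2 and 562 normalised reads against 51.0 to 164, and in Med21 201 and 189 against 77.7 to 155. Tbp itself had 115 and 95.2 normalised reads in the pair, the lowest of the 29 FOXJ3 embryos, of which the next had 224. The embryos are called by their label here, and whether it holds was not tested. The oocyte markers summed to 3016 and 4062 CPM in the pair against 814 to 2711 in the other 11, and the 2-cell markers to 762 and 1021 against 149 to 593. Their numbers of detected genes, 17332 and 18004, lay at or above most of the 11, with 13736 to 17688. Their part in this difference was not tested.

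**Figure D5:**
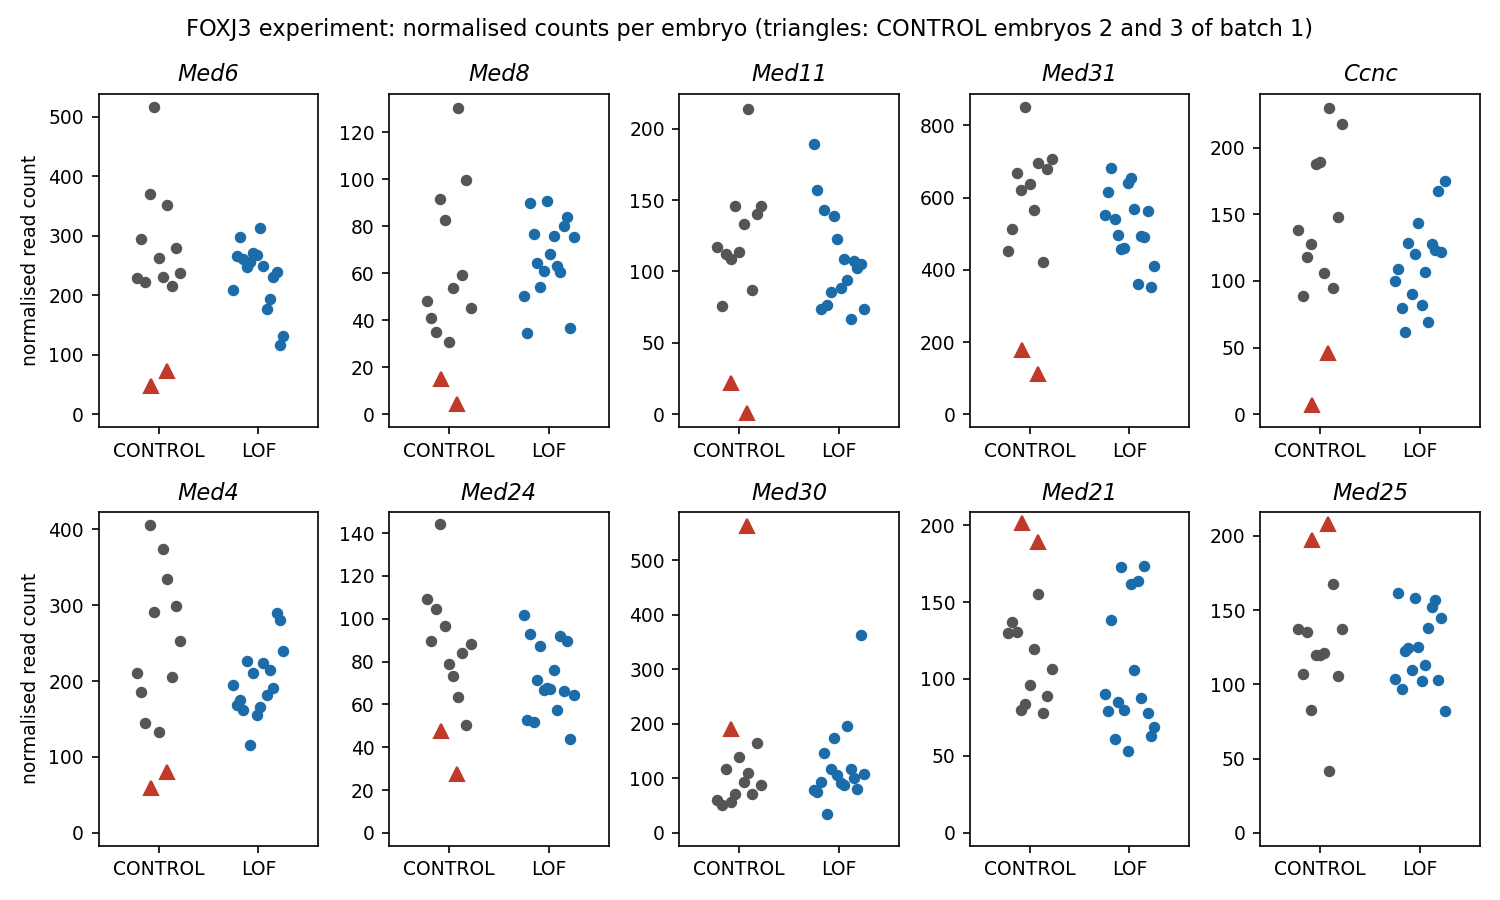
Normalised read counts (vertical axes, TMM scale) of 10 Mediator genes in the FOXJ3 CONTROL and LOF embryos. The triangles are CONTROL embryos 2 and 3 of batch 1, which lie below all other embryos of both groups in Med6, Med8, Med11, Med31, Ccnc and Med4 and above the other CONTROL embryos in Med30, Med21 and Med25.

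Without these 2 embryos still no Mediator gene was called in FOXJ3 LOF, 8 (24.2%) had an unadjusted p under 0.05, beside 6.31% of all genes, and the smallest adjusted p was 0.167 (edgeR). Med26 and Med30 stood above 0, Med30 at 0.47 against -0.16 with all embryos. The estimates of the other 6 of the 8 were below 0, those of Med16, Med6, Ccnc, Med31, Med4 and Med24. All but Med16 of these 6 are among the 7 Mediator genes lower in TBP LOF under both scalings (5 of 7). Of all 2353 genes so called, 7.18% had such a p and an estimate below 0. The estimates of the 5 ran from -0.38 (Med6) to -0.28 (Med31), against -0.16 and -0.07 with all embryos. The pair, which was low in these genes, was left out after its values were seen, so that the counts are a description.

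The effect of TBP LOF was also set against that of FOXJ3 LOF in a single fit with all 4 groups, each against its own CONTROL. With spike-in scaling 14 Mediator genes had a lower effect in TBP LOF and none a higher one (42.4% of members), beside 28.1% and 0.97% of 18759 genes. Among the better expressed genes (filterByExpr, 11317 genes) again 14 of the 33 were lower, beside 43.4% lower and 0.672% higher of all genes, so that their share was near the background there. All 14 are among the 17 that fell in TBP LOF, which the same embryos gave, and Med12, Med16 and Med22 were the 3 left out. Under TMM 5 were lower, Med6, Med8, Med11, Med31 and Ccnc, and 6 were higher, Med13l, Med15, Med21, Med25, Med27 and Med28, beside 10.9% and 10.5% of all genes. The difference for Med8 was -3.50 with spike-in scaling (edgeR adjusted p = 6.75e-07) and -2.36 with TMM (adjusted p = 0.000164), and for Med28 0.02 (0.978) and 1.06 (0.00262). Without the 2 FOXJ3 CONTROL embryos that stood apart, 14 were lower and none higher with spike-in scaling, beside 27.8% and 0.504% of all genes. Under TMM the same 5 were then lower and 4 higher, beside 9.75% and 7.04% of all genes. Med13l at 0.78 (edgeR adjusted p = 0.0506, before 0.83) and Med25 at 0.73 (0.0568, before 0.87) were no longer called. The TMM difference for Med27 was then 0.73 (edgeR adjusted p = 0.0444), against 1.02 with all embryos.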

How the data were processed

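Counts of single late 2-cell embryos were used as deposited. Per the Methods and the labels, the authors trimmed the reads, mapped 5′ reads with STAR 2.7.11a to GRCm38 and counted them with TEcount per gene, spike-in and transposable element (TE) family. The deposited values are counts (estimated counts, or expected counts, for TEs) without normalization. All were whole numbers. Embryos needed at least 500000 reads and 1000 genes, at most 10% mitochondrial and 15% ERCC reads. Genes and TE families with a read in at least 25% of embryos were compared by edgeR 4.0.16 (R 4.3.3) with quasi-likelihood F tests, two-sided, adjusted by Benjamini-Hochberg over both at a threshold of 0.05. Scaling for TBP used the median of ratios over 42 ERCC transcripts found in every embryo, and for FOXJ3 TMM, with batch as a term. Normalised reads are counts divided by the size factor. Standard errors were derived from the F statistic. Alternatives used DESeq2 1.42.0. The fit was tested on simulated data with few features changed, in either direction, and for TBP with known size factors. That simulation could not test the choice of scaling. Symbols and exon lengths came from gencode M21, promoters from RefSeq. Intervals cover the spread between embryos, and PCR reads are not independent molecules. The genes described with values per embryo were the 5 with the smallest adjusted p on either side of 0 in TBP LOF, the paralog pairs and the 3 with the smallest p in FOXJ3 LOF, others by range or where scaling moved them. The members and lists were chosen with earlier results of these data known. Insertion counts were not used here. The values of 1 neighbouring gene are not reported here.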

Additional observations from a re-analysis of the deposited data

Results flagged for a closer look

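In 5 of 68 groups of TBP embryos examined for a single value far from the others, the gap between the most extreme embryo and its neighbour passed Dixon's 95% critical value for 9 embryos. For normally distributed values chance gives about 1 in 20 such groups. The rate for read counts, some of them low, was not tested. In TBP CONTROL, embryo 1 had 91.0 normalised reads of Med13l, with the next at 51.4, and embryo 8 had 143 of Med22, with the next at 78.1. In TBP LOF, embryo 2 had 8.71 normalised reads of Med12, with the next at 3.18, and 10.2 of Med18, with the next at 4.30. In TBP LOF, embryo 6 had 107 of Med6, with the next at 49.2.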

How the results depend on the processing

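Scaling was the choice that mattered in TBP LOF. With TMM 7 Mediator genes were lower and 7 higher, with a median of -0.10, and with median-of-ratios size factors on genes and TE families again 7 and 7, with a median of -0.065. Of all genes 12.9% were lower and 13.2% higher with TMM, and 12.9% and 13.8% with median of ratios. Both set the bulk of genes equal, so that all estimates move up together. The sign changed under TMM and median of ratios for Med17 (0.10 and 0.093), Med19 (0.51 and 0.51), Med30 (0.75 and 0.77), Cdk19 (0.27 and 0.31), Cdk8 (0.19 and 0.21), Med13 (0.21 and 0.22), Med1 (0.20 and 0.21), Med26 (0.64 and 0.66), Med14 (0.19 and 0.20), Med25 (0.82 and 0.85) and Med27 (0.56 and 0.59). With DESeq2, no filter, all 19 embryos or total ERCC reads, 17 genes fell and none rose. Of all genes 21.7% to 30.4% were lower and 1.08% to 1.64% higher in these fits. Med30 turned to 0.047 with all 19 embryos. Some embryo numbers were shared between groups, in 7 TBP and 12 FOXJ3 pairs, and not every same-numbered pair deviated together (correlations of -0.22 to 0.24). With the replicate number as a block 17 fell and none rose, beside 24.8% and 1.52% of all genes. The TBP median was then -0.98, the FOXJ3 median was 0.03 with 0 calls, and Med28, Med30 and Med26 stood at -0.081, 0.14 and 0.13. The rest was added after the data were seen. Without FOXJ3 CONTROL embryos 2 and 3 of batch 1, the difference between the TBP and FOXJ3 effects under TMM called 9 Mediator genes, beside 9.75% lower and 7.04% higher of all genes. With each of the 18 TBP embryos left out, 16 to 17 genes fell, 0 rose, and the median ran from -1.24 to -0.78. Only without TBP CONTROL embryo 8 were there 16, with Med22 at -0.76 (edgeR adjusted p = 0.108). Genes near 0 changed sign, Med13l between -0.14 and 0.16, Med21 between -0.039 and 0.33, Med26 between -0.28 and 0.061, Med28 between -0.13 and 0.11 and Med30 between -0.23 and 0.13. Without TBP LOF embryos 9 and 11, Med22 stood at -0.87 and no longer passed the test, Med30 at 0.16 and Med26 at 0.20. Med12, Med12l and Cdk19 rest on 339, 433 and 383 reads over all embryos.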
